A study of Arabidopsis thaliana with 12 samples.

Results

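The mRNAs that encode the core proteins of small nucleolar ribonucleoproteins (snoRNPs) and the nucleolins were examined in RNA recovered with tagged fibrillarin from Arabidopsis seedlings. They come from 10 loci: AT1G56110 (NOP56) and AT3G12860 of the NOP56 type, AT5G27120 and AT3G05060 of the NOP58 type, AT4G12600, AT4G22380 and AT5G20160 of the SNU13 type, AT3G57150 (NAP57), AT1G48920 (NUC-L1) and AT3G18610 (NUC-L2). Every peak named for one of these loci was taken, which gave 296 of the 1032992 peaks used, and 10 of the 35288 annotated loci with a peak. At least 1 library held a peak in each of the 10 loci.

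Box C/D snoRNPs carry a guide RNA that pairs with ribosomal RNA, and fibrillarin in the particle adds a methyl group to the ribose at the paired site. SNU13 binds the k-turn formed by the C and D boxes, and NOP56 and NOP58 then hold the RNA and fibrillarin in place. H/ACA snoRNPs use NAP57, the plant dyskerin, as the enzyme that turns uridine into pseudouridine. Nucleolin is an abundant RNA-binding protein of the nucleolus that acts on ribosomal RNA genes and their transcripts. Some guide snoRNAs lie in introns of genes for nucleolar and ribosomal proteins, so reads named for such a gene may come from the mRNA or from a guide in an intron.

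Crosslinking and immunoprecipitation with sequencing (CLIP-seq) was done on 14-day-old Col-0 seedlings that had been exposed to ultraviolet light. Plants expressed GFP alone, which served as the negative control, GFP-FIB1 or CFP-FIB2, with 4 replicates each, and FIB1 and FIB2 are fibrillarin genes. The sources used here do not give the promoters of the transgenes, the number of transgenic lines or the state of the endogenous fibrillarin genes. Nothing says that replicates came from separate plant cultures, so p-values measure the spread between these libraries. The control carries the GFP tag and not the CFP tag.

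The libraries held 2811379 to 12438185 reads in peaks, and the 10 loci took 0.00274% to 0.0384% of them. The rubisco and light-harvesting mRNAs used as a check of the seedling label had a peak in 11 or 12 of 12 libraries. The correlation of the libraries over 4483 other protein-coding loci, each with reads in all 12, put them in 3 sets. In set A were the first replicates of all groups and GFP replicate 2. In set B were GFP replicate 3 and the second replicate of either tagged line. The remaining 5 libraries, GFP replicate 4 among them, formed set C with replicates 3 and 4 of either tagged line. Pearson's r was 0.463 to 0.866 within sets and 0.159 to 0.681 between them. The labels do not give these sets, and another way of clustering gave other sets, so they are not taken as batches of the study. They are used to describe values, and as a term in an alternative fit.

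The stretches of RNA on which peaks recurred are printed first, since the results turn on them. Each is the transcript strand, 5′ to 3′, from the RefSeq TAIR10.1 genome, and capitals mark nucleotides under a peak in at least 50% as many libraries as the most covered nucleotide of the site. NOP56 site 1 lies at the end of the coding sequence in exon 8 (chr1:20984544-20984620, minus strand) and its last letters are the stop codon. The NUC-L2 site (chr3:6407368-6407407, minus strand) and the NUC-L1 site (chr1:18098694-18098730, plus strand) both lie in coding sequence of exon 3.
NOP56 site 1: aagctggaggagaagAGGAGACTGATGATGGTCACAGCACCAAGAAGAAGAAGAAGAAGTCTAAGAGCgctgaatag
NUC-L2 site 1: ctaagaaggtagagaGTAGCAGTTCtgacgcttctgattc
NUC-L1 site 1: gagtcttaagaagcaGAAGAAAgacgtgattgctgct

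The NOP58 type locus AT5G27120 had its first site at the 3′ end of exon 3 (chr5:9541483-9541518, plus strand), and the same exon of AT3G05060 is shown with its single peak in capitals (chr3:1415340-1415376, minus strand). The last 2 sequences are from introns, at AT4G22380 of the SNU13 type (chr4:11812221-11812266, minus strand) and AT3G12860 of the NOP56 type (chr3:4093410-4093444, plus strand).
AT5G27120 site 1: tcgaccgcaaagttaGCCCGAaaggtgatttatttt
AT3G05060 exon 3 peak: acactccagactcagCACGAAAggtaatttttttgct
AT4G22380 intron site: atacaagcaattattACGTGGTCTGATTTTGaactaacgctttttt
AT3G12860 intron site: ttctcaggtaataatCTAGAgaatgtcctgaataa

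Peaks of these loci were short and most lay in coding sequence, and how far the reads gathered at a single site differed between the loci. The strongest 50-nt window held 73.7% of the RPM of NOP56 and 73.1% of that of NUC-L2, but 18.4% in NAP57, 20.8% in AT3G12860, 25.9% in AT3G05060 and 35.8% in AT4G12600. The median over 24516 protein-coding loci with a peak in at least 4 libraries was 39.3%, with 6 of the 10 loci above it and 4 below. Without the 5 libraries of set C that median was 38.5%. NOP56 (31.0%) and NUC-L1 (20.9%) then lay below it, and AT4G12600 (50.8%) lay above it. The share was not adjusted for the number of peaks of a locus. Of the 296 peaks, 230 (77.7%) lay in coding sequence, 42 (14.2%) in untranslated parts and 24 (8.11%) in introns. A peak that touched coding sequence at any nucleotide counted as coding, and only a peak that touched no exon counted as intronic. The share in coding sequence over other loci was not computed. Of the 10475 reads in them, 238 (2.27%) were intronic. NOP56 holds most of the reads and has none in an intron, and without it the intronic share was 11.4% of 210 peaks and 9.19% of 2589 reads. In other protein-coding loci with introns, 11.5% to 20.7% of peaks and 11.1% to 25.4% of reads per library were intronic. Of the members' reads per library, 0% to 13.9% were intronic, or 0% to 20.3% without NOP56. All these member shares also count NAP57, which has 36 peaks and no intron. The 2 sets of loci are thus unlike, and NAP57 can only lower the members' shares. None of the 287 annotated snoRNA genes overlapped a member, and 0 peaks with another name overlapped a member's span.

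Peaks were short, with a median length of 12 nt and a range of 1 to 69 nt, and no library's peaks covered a whole mRNA: the largest share of exonic nucleotides under peaks in 1 library was 11.6%, in NOP56. Over all 12 libraries together, peaks touched between 4.19% (AT3G12860) and 31.9% (NAP57) of a member's exonic nucleotides. The median over 24516 protein-coding loci with a peak in at least 4 libraries was 6.55%, with quartiles of 4.16% and 10.3%. Above the upper quartile lay 7 of the 10 loci, with NOP56 (31.4%) and NAP57 (31.9%) the highest and AT3G05060, NUC-L1, AT4G22380, AT4G12600 and AT5G20160 at 10.9% to 14.9%. AT5G27120 lay at 7.71%, and NUC-L2 (5.60%) and AT3G12860 lay below the median. Coverage was not adjusted for the number of reads, which differs between loci.

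The recurrence of peaks at 1 nucleotide differed widely among the members. In NUC-L2 the same nucleotide lay under a peak in 12 of 12 libraries, which held for 1.68% of the 24516 loci. The corresponding number was 10 libraries in AT5G27120, reached by 5.45% of loci, and 8 in NUC-L1, reached by 20.5%. The other 7 members had 3 to 6 libraries at their most shared nucleotide, and the median over the 24516 loci was 5. Recurrence was not adjusted for the number of reads or peaks of a locus. The 24516 loci needed a peak in only 4 libraries, so some of them could not reach the higher numbers.

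**Figure D1:**
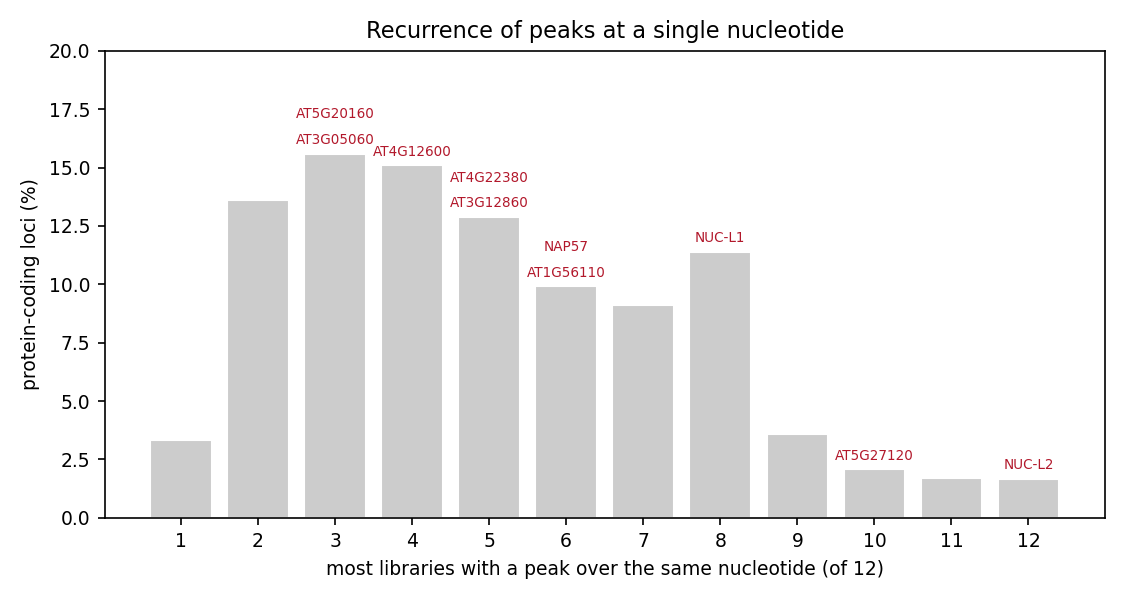
Grey bars give the percent of 24516 protein-coding loci by the largest number of libraries, of 12, with a peak over the same nucleotide, and the names in red (AT1G56110 is NOP56) mark the bar of each of the 10 loci. NUC-L2 stands at 12 libraries, AT5G27120 at 10 and NUC-L1 at 8, and the other 7 stand between 3 and 6.

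NOP56, the scaffold protein of the box C/D particle, is encoded by 8 exons on the minus strand (chr1:20984273-20986952) and had the highest mean level of the 10 loci, which rests on set C. Levels are given as RPM, reads in a locus's peaks over the library's reads in tested loci after TMM scaling, which adjusts each library for a few loci that take many reads. The scaled library size was 0.282 (CFP-FIB2 replicate 4) to 1.18 times (GFP replicate 2) the reads in all peaks. In GFP replicates 1 to 4 NOP56 stood at 0.924, 7.07, 0.494 and 294 RPM. In GFP-FIB1 it stood at 7.79, 1.92, 180 and 237 RPM, and in CFP-FIB2 at 7.32, 1.01, 344 and 319 RPM. The 5 libraries of set C held 180 to 344 RPM and the other 7 held 0.494 to 7.79 RPM, so the level divided libraries of every group, the control included, and the 3 groups overlapped. The group means were 75.7 ± 146 RPM (SD, n = 4) in GFP, 107 ± 120 RPM in GFP-FIB1 and 168 ± 189 RPM in CFP-FIB2. Its mean of 117 RPM ranked 128 among 16742 protein-coding loci tested. Per kb of exon this was 61.5 RPM, against 2.00 RPM per kb over the 7 libraries outside set C. In those 7 its mean was 3.79 RPM, below NUC-L2 (10.6 RPM), NUC-L1 (8.91 RPM), AT5G27120 (6.07 RPM) and NAP57 (5.77 RPM).

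In set C most NOP56 reads lay in the last stretch of coding sequence printed above. NOP56 site 1 (chr1:20984553-20984605) held 90.3% of the locus's reads in GFP replicate 4, 81.8% and 72.5% in GFP-FIB1 replicates 3 and 4, and 64.2% and 70.9% in CFP-FIB2 replicates 3 and 4. That made 266 RPM in the control, 147 and 172 RPM in GFP-FIB1 and 221 and 226 RPM in CFP-FIB2. Of the other 7 libraries, GFP-FIB1 replicate 2 had 0.855 RPM there, CFP-FIB2 replicate 1 had 1.91 RPM, and 5 had no peak. On this scale the control library was the highest of the 12 at the site. Relative to all reads in peaks, with no TMM scaling, it stood at 193 RPM, CFP-FIB2 replicates 3 and 4 at 220 and 63.8 RPM and GFP-FIB1 replicates 3 and 4 at 121 and 151 RPM, so the control then lay within the range of the tagged libraries of set C. The level of the whole locus became 90 RPM in CFP-FIB2 replicate 4 on that scale, and set C remained above the other 7 libraries, which reached at most 8.31 RPM.

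**Figure D2:**
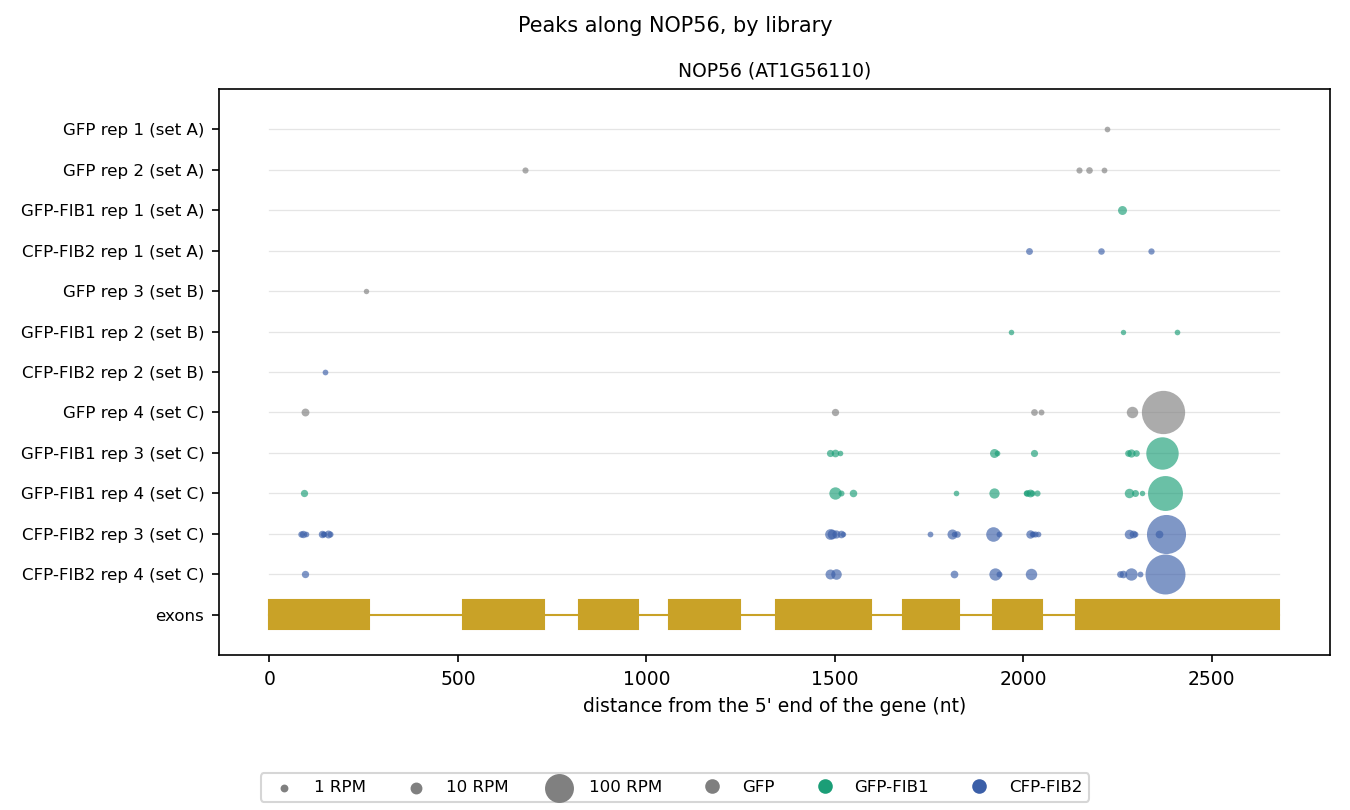
Peaks along NOP56 in each of the 12 libraries, ordered by library set, against the distance in nt from the 5′ end of the gene, with circle area growing with RPM, colour giving the group and gold blocks giving the 8 exons. The large circles near the end of the coding sequence stand in the 5 libraries of set C, between 147 and 266 RPM.

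The strongest 50-nt window of NOP56 held 73.7% of its RPM, and 31.0% in the 7 libraries outside set C. The set C libraries had 72 of its 86 peaks. Smaller sites recurred there too: site 2 in exon 8 held 15.1 RPM in GFP replicate 4 and 11.3 to 18.2 RPM in the 4 tagged libraries of set C. Site 4 in exon 5 held 3.93 RPM in GFP replicate 4, 9.10 and 19.6 RPM in GFP-FIB1 and 33.1 and 22.8 RPM in CFP-FIB2. At site 4 the 4 tagged libraries of set C were all above the control library of that set, which is 1 library. At site 1 that control was the highest after TMM scaling, and at site 2 it lay within the range of the tagged libraries. The share of all sites with the order of site 4 was not computed. Site 3 in exon 7 held 2.80 RPM in that control, 3.64 to 15.1 RPM in the same 4 tagged libraries and 3.02 RPM in CFP-FIB2 replicate 1. In the 50-nt window over site 3 the control stood at 4.11 RPM, above GFP-FIB1 replicate 3 at 3.64 RPM. GFP-FIB1 replicate 4 and CFP-FIB2 replicates 3 and 4 stood at 11.8, 10.9 and 15.1 RPM in that window. At the 5′ end of exon 7, peaks such as chr1:20985028-20985034 in GFP-FIB1 replicate 4 reach 1 nt into the intron. Peaks were placed in windows by their midpoint, and 1 window of 50 nt there held peaks of the 4 tagged libraries of set C only. These came to 8.74 and 11.4 RPM in GFP-FIB1 replicates 3 and 4 and 28.2 and 19.4 RPM in CFP-FIB2 replicates 3 and 4. A peak of 6 reads in GFP-FIB1 replicate 2 (chr1:20984961-20985011) overlapped the window but had its midpoint outside it. GFP replicate 4 had no peak in that window. The share of all windows with such a split was not computed. None of 1707 words of 25 nt in the NOP56 exons occurred elsewhere in the genome.

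The other NOP56 type locus, AT3G12860 (chr3:4091567-4094195, plus strand, 8 exons), stood at 0 to 3.91 RPM and had a peak in 8 libraries. Of its 20 peaks 5 were intronic, and in 5 libraries they overlapped the same stretch of 5 nt of an intron (chr3:4093425-4093429). These peaks held 3 to 6 reads each, or 0.447 to 1.09 RPM, in GFP replicate 3, GFP-FIB1 replicates 3 and 4 and CFP-FIB2 replicates 2 and 3. The intron site held 20.8% of the locus's RPM over the 12 libraries, and over 20284 loci with introns the share of RPM in introns had a median of 8.06% and an upper quartile of 25.2%, so the locus lay within the usual range.

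NOP58, the partner of NOP56 in the particle, is represented by AT5G27120 and AT3G05060, of which the first had the higher mean level (5.70 against 2.30 RPM) and the second more of its exonic nucleotides under a peak in any library (14.9% against 7.71%). AT5G27120 (chr5:9540861-9544065, plus strand, 9 exons) stood at 1.54, 3.54, 8.76 and 9.35 RPM in GFP, at 14.6, 5.77, 4.92 and 3.47 RPM in GFP-FIB1 and at 0, 8.27, 6.53 and 1.71 RPM in CFP-FIB2. The 3 groups overlapped, and CFP-FIB2 replicate 1 was the only library with no peak. AT3G05060 (chr3:1412867-1416056, minus strand, 9 exons) stood at 6.16, 0.558, 4.81 and 3.18 RPM in GFP, at 4.87, 0.641, 2.37 and 1.02 RPM in GFP-FIB1 and at 1.11, 1.45, 1.43 and 0 RPM in CFP-FIB2. GFP replicate 2 lay within the CFP-FIB2 range, so these groups overlapped as well.

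Site 1 of AT5G27120 (chr5:9541498-9541503) ended 3 nt before the end of exon 3, a 42-nt exon. Peaks overlapped it in 11 libraries: all 4 of GFP with 1.54, 1.12, 3.21 and 7.11 RPM, all 4 of GFP-FIB1 with 11.2, 1.17, 1.09 and 1.84 RPM, and 3 of CFP-FIB2 with 3.46, 2.14 and 1.71 RPM. In 4 of them the peak reached the last nucleotide of the exon, and the locus had 0 peaks in its 8 introns. Site 2 in exon 7 (chr5:9542530-9542546) had a peak in 7 libraries with 1.02 to 4.02 RPM, and in none of the 4 libraries of set A. Exon 3 of AT3G05060 is also 42 nt long and 31 of its nucleotides are identical. Its only peak there, singled out after the values were seen, held 6 reads in GFP replicate 3 and ended 1 nt before the exon end. Of the 25-nt words in AT5G27120 exons, 3.21% occurred elsewhere in the genome and none in another of the 10 loci.

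The SNU13 type loci, for the protein that first binds the guide RNA, had the fewest peaks. AT4G22380 (chr4:11811731-11813000, minus strand, 2 exons) had 13 peaks in 9 libraries and 0 to 4.99 RPM, AT4G12600 (chr4:7453196-7454546, plus strand, 2 exons) had 10 peaks in 6 libraries and 0 to 4.58 RPM, and AT5G20160 (chr5:6803694-6805226, minus strand, 3 exons) had 10 peaks in 6 libraries and 0 to 5.03 RPM. In AT4G22380, 7 of the 13 peaks and 55.2% of RPM were in its single intron. Over 20284 loci with introns the share of RPM had a median of 8.06% and an upper quartile of 25.2%, so this locus lay above that quartile. Its share rests on few peaks with few reads. AT4G12600 had 1 intronic peak and AT5G20160 had 0. AT4G22380 and AT5G20160 share 5 words of 25 nt, so a small part of their reads could belong to either.

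The intronic site of AT4G22380 (chr4:11812236-11812251) lay in 6 libraries: 0.617 RPM in GFP replicate 3, 1.07, 0.910 and 1.23 RPM in GFP-FIB1 replicates 2 to 4, and 3.13 and 2.85 RPM in CFP-FIB2 replicates 2 and 3. It was thus seen in 1 of 4 control and 5 of 8 tagged libraries, and in no library of set A. That set holds GFP replicates 1 and 2 and replicate 1 of either tagged line. A site needed at least 5 libraries at its most covered nucleotide, so the 4 control libraries alone could not form one. The share of intronic windows with such a split was not computed, so the counts only describe this site. The TGATGA sequence of a C box was absent within 120 nt centred on this site and on the intron site of AT3G12860, and each region held 1 CTGA, the D box sequence. For comparison, 8.29% of 3629 intronic windows of protein-coding loci with a peak in at least 4 libraries held TGATGA in 120 nt on the transcript strand, 3.89% held it on the other strand, and 41.9% held CTGA (30.9% on the other strand). Such a match or its lack describes letters in these windows only.

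NAP57, the pseudouridine synthase of H/ACA particles, has 1 exon and no intron (chr3:21153815-21156075, minus strand). It stood at 1.85, 8, 2.84 and 2.43 RPM in GFP, at 1.46, 13.5, 3.64 and 2.25 RPM in GFP-FIB1 and at 9.07, 3.69, 0.950 and 3.99 RPM in CFP-FIB2. The groups overlapped throughout, with the highest value in GFP-FIB1 replicate 2 and the lowest in CFP-FIB2 replicate 3. Its reads were the most evenly spread of the 10 loci: its 36 peaks fell in 23 of 46 windows of 50 nt, and the strongest window held 18.4% of RPM. The median over the 24516 protein-coding loci was 39.3%, with a lower quartile of 26.5%. The most frequent site (chr3:21155746-21155769) had a peak in 6 libraries, 2 of each group, with 0.864 to 4.17 RPM.

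NUC-L1, the nucleolin expressed in growing plants (chr1:18098081-18101732, plus strand, 15 exons), had a peak in all 12 libraries. It stood at 5.85, 11, 11.5 and 11 RPM in GFP, at 12.9, 5.02, 16.2 and 11 RPM in GFP-FIB1 and at 10.7, 5.47, 20.7 and 10.3 RPM in CFP-FIB2. The groups overlapped, with group means of 9.84 to 11.8 RPM. Its site in exon 3 (chr1:18098709-18098715) had a peak in all 8 libraries of sets B and C and in 0 of the 4 libraries of set A. Reads there came to 8.52 and 6.54 RPM in GFP replicates 3 and 4, to 2.46, 10.6 and 9.60 RPM in GFP-FIB1 replicates 2 to 4 and to 1.56, 17.0 and 10.3 RPM in CFP-FIB2 replicates 2 to 4. The window with this site held 50.9% of the locus's RPM, and 20.9% without set C.

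NUC-L2, the second nucleolin (chr3:6404053-6407946, minus strand, 18 exons), showed the most recurrent site of the 10 loci. Its level was 35.4, 7.26, 2.96 and 4.67 RPM in GFP, 21.2, 2.56, 2.37 and 4.09 RPM in GFP-FIB1 and 2.71, 2.46, 3.21 and 2.57 RPM in CFP-FIB2. The highest values were in GFP replicate 1 and GFP-FIB1 replicate 1, both of set A, and the other 10 libraries lay between 2.37 and 7.26 RPM. The site in exon 3 (chr3:6407383-6407392) held 32.9, 7.26, 2.10 and 1.87 RPM in GFP, 10.2, 2.14, 1.27 and 2.25 RPM in GFP-FIB1 and 2.71, 0.670, 1.66 and 1.71 RPM in CFP-FIB2. The GFP libraries ranged from 1.87 to 32.9 RPM there and overlapped both tagged groups, and the window with the site held 73.1% of the locus's RPM.

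**Figure D3:**
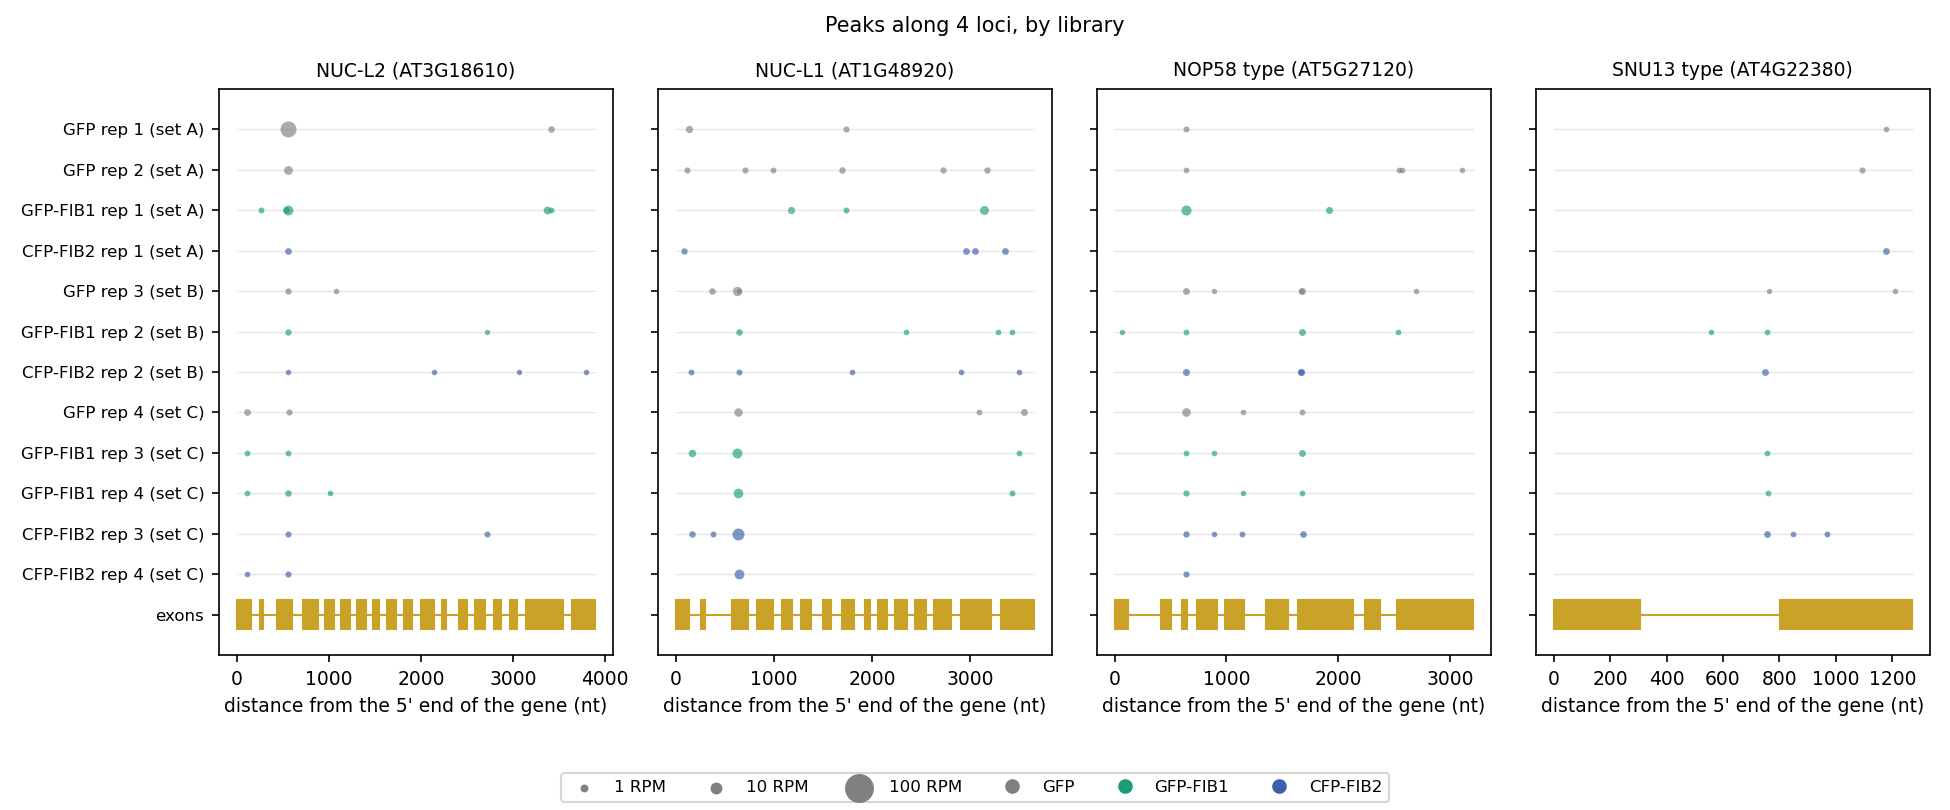
Peaks along NUC-L2, NUC-L1, AT5G27120 and AT4G22380 in each library, against the distance in nt from the 5′ end of the gene, drawn with circle area by RPM, colours for the groups and gold blocks for exons. A vertical line of circles marks the exon 3 site of NUC-L2 in all 12 libraries, that of AT5G27120 in 11, the NUC-L1 site in 8 and the intron site of AT4G22380 in 6.

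**Figure D4:**
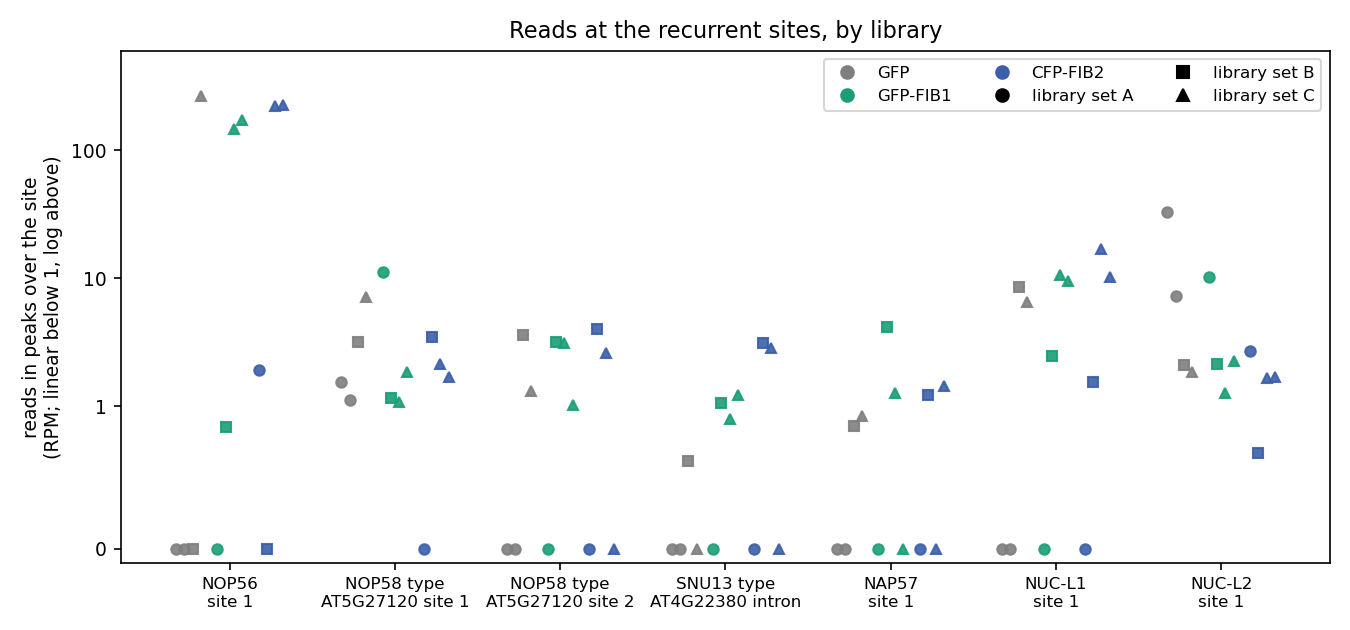
Reads at 7 recurrent sites in RPM, on an axis linear below 1 and logarithmic above, with 1 point per library, colour for the group and shape for the library set. At NOP56 site 1 the 5 triangles of set C lie between 147 and 266 RPM in all 3 groups, and at NUC-L2 all 12 points lie above 0.

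The AAGAAG sequence was searched on both strands in 50 nt centred on each of the 11 sites. It occurred on the transcript strand of NOP56 site 1 (3 copies counted without overlap), the NUC-L1 site and the NUC-L2 site, and on the other strand of none. In NOP56 it lay in the nucleotides printed in capitals. In NUC-L1 and NUC-L2 it lay in the flank beside the site, outside the capitals. Of 29866 windows of 50 nt of protein-coding loci with a peak in at least 4 libraries, 4.00% held it and 3.92% held it on the other strand. TGATGA occurred at 1 of the 11 sites, NOP56 site 1, and in 4.17% of those windows, or 1.86% on the other strand. These were looked for after the sequences were read, so the matches are a description.

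The comparison of groups asks which RNAs came with tagged fibrillarin beyond those that came with GFP. For the 8 members that passed the filter on low values, none was called in any of the 3 comparisons by limma at an adjusted p under 0.05, and all adjusted p were 1.00. Across all 19545 loci tested, 0 (0%) were called in each comparison, so the count says nothing particular to the members. At an unadjusted p under 0.05, 2.79% of loci passed for GFP-FIB1 against GFP, 2.41% for CFP-FIB2 against GFP and 1.11% for GFP-FIB1 against CFP-FIB2, and 0 of the 8 members did in each. AT4G12600 and AT5G20160 did not pass the filter and were not tested. With the library sets as a term, 0.629%, 0.496% and 0.00512% of loci were called in these comparisons by limma, and 0 of the 8 members, with adjusted p of 0.861 or more.

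The log2 fold change of NOP56 was 1.83 ± 1.90 (SE) in GFP-FIB1 and 2.02 ± 1.90 in CFP-FIB2 relative to GFP, on log2(RPM + 1). Without GFP replicate 4 these became 3.51 ± 1.78 and 3.69 ± 1.78, with adjusted p of 0.870 and 0.913 by limma. With the library sets in the fit they were 0.49 ± 0.56 and 0.68 ± 0.56, and with the sets from average linkage, the other clustering, 1.16 ± 2.12 and 1.37 ± 1.82. For NUC-L2 they were −0.58 ± 0.79 and −1.28 ± 0.79, and for AT3G05060 −0.51 ± 0.62 and −1.11 ± 0.62. For AT5G27120 they were 0.32 ± 0.79 and −0.66 ± 0.79, and for AT4G22380 −0.04 ± 0.61 and 0.73 ± 0.61. The values of AT3G12860, NAP57 and NUC-L1 lay between −0.48 and 0.17, each below its SE of 0.63 to 0.73. The 2 comparisons share the GFP libraries. GFP-FIB1 against CFP-FIB2 ranged from −0.76 (AT4G22380) to 0.97 (AT5G27120) with SE of 0.61 to 1.90.

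**Figure D5:**
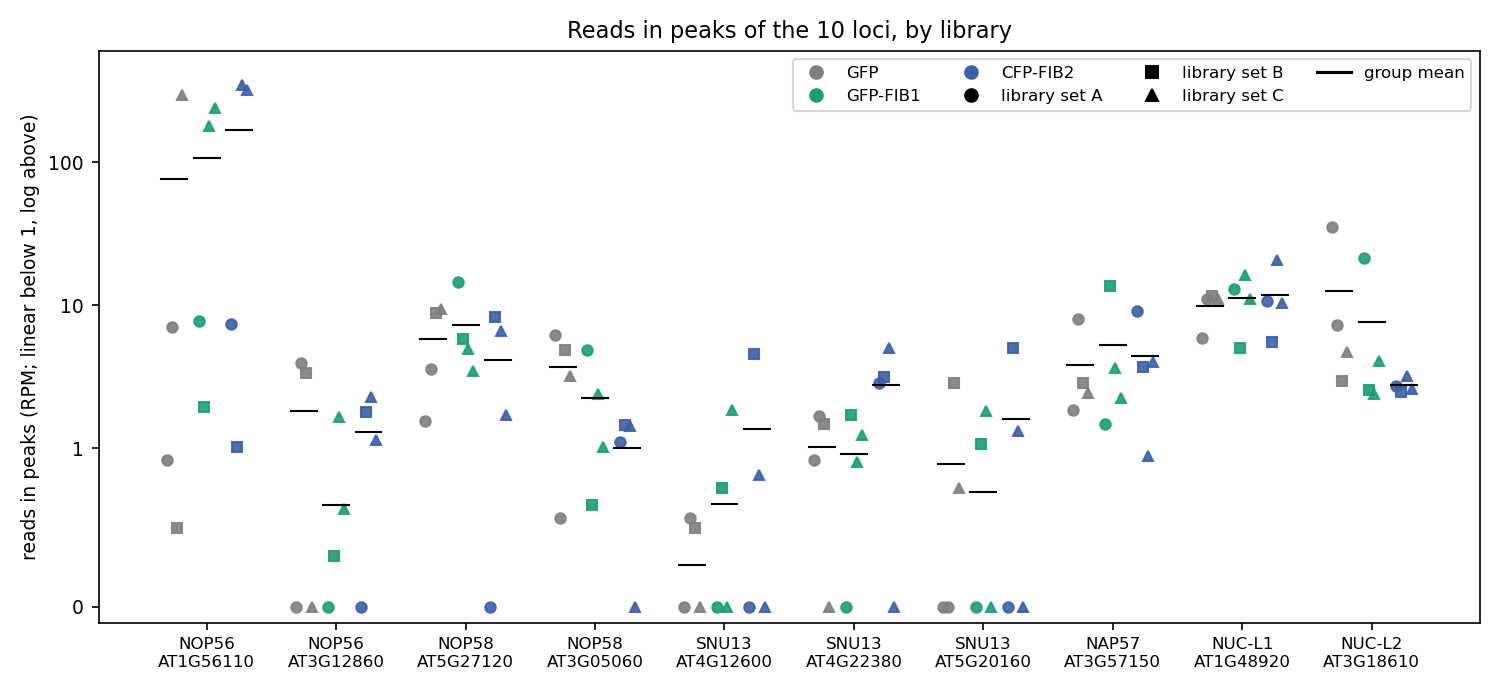
Reads in peaks of the 10 loci in RPM, on an axis linear below 1 and logarithmic above, with 1 point per library, colour for the group, shape for the library set and a black line for the mean of each group of 4. NOP56 is split into 5 libraries at 180 to 344 RPM and 7 at 0.494 to 7.79 RPM, and the groups of every locus overlap.

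No member had groups that did not overlap. Of the 19545 loci, 0.895% lay wholly higher and 0.916% wholly lower in GFP-FIB1 than in GFP, and 1.26% and 0.553% in CFP-FIB2 than in GFP. The shares were 0.450% and 0.558% for GFP-FIB1 against CFP-FIB2. The median log2 fold change of the 8 members was 0.04 in both comparisons with GFP, against 0.08 and 0.12 over all loci. Single sites were tested in the same way: of 15 windows of 50 nt in the members, 0 were called, against 1 (0.00284%) of 35185 windows in GFP-FIB1 against GFP and 4 (0.0114%) in CFP-FIB2 against GFP, and 0 (0%) between the tagged groups. At an unadjusted p under 0.05, 2.71%, 2.01% and 1.31% of windows passed, and 0, 1 and 0 of the member windows. With the library sets, 0.0711%, 0.0568% and 0% of windows were called and 6.67%, 5.64% and 4.82% passed unadjusted, with 0 member windows called and 0, 2 and 0 passing unadjusted. The window with the lowest unadjusted p in the members was the one at the 5′ end of exon 7 of NOP56, with a log2 fold change of 2.30 ± 0.95 for CFP-FIB2 over GFP (unadjusted p = 0.0156 and adjusted p = 1.00 by limma). That window had a peak in 4 libraries, the fewest the filter allows, and all 4 were tagged. It thus entered the test only through the groups where it is high, and its p-value is no support for a difference.

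Of 18 other genes of snoRNP and ribosome assembly listed for comparison, 17 were tested and 0 were called by limma, with 1 at an unadjusted p under 0.05 in either comparison with GFP. Their median log2 fold change relative to GFP was −0.22 (GFP-FIB1) and 0.20 (CFP-FIB2), and 8 and 11 of the 17 were above 0. The highest level was that of FIB1 (AT5G52470), at 24.2 ± 12.4 RPM (SD, n = 4) in GFP, 327 ± 265 RPM in GFP-FIB1 and 235 ± 112 RPM in CFP-FIB2. Its log2 fold changes were 3.13 ± 1.16 and 3.24 ± 1.16, with adjusted p = 1.00 by limma for both. FIB1 is also the transgene in GFP-FIB1 but not in CFP-FIB2, and reads of the transgene and of the endogenous gene cannot be told apart here. Whether the FIB1 reads lay in exons or introns was not examined. The source of the higher FIB1 level in either tagged line was not tested.

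The 3 loci whose log2(RPM + 1) was most like that of NOP56 over the 12 libraries were AT1G24220 (Pearson's r 0.974), AT4G37710 (r 0.965), named VQ29 among its RefSeq synonyms, and AT1G33110 (r 0.964). All 12 libraries enter these values and they share the set C libraries. AT4G37710 stood at 10.4 to 26.2 RPM in the 5 set C libraries and at 0 to 0.477 RPM in the other 7.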

How the data were processed

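CLIP-seq libraries of 12 seedling samples were analysed. Per the labels, seedlings were crosslinked with ultraviolet light, and a NEBNext small RNA kit was used for the libraries. The authors deposited 1 peak list per library, called per library, with a p-value for each peak and a whole number in its name that no source explains. It was read here as the count of reads in the peak. The submitters' processing notes name DESeq2. Aligner, peak caller and build are not given in the sources read here. Named peaks in annotated loci lay within their RefSeq TAIR10.1 bounds and on their strand, so that annotation was used. A locus with no called peak counts as 0, although it may have reads, and reads may include PCR copies.

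Where peaks of 1 library overlapped, only that with the most reads was kept (1032992 of 1037099 peaks). Tested loci had to reach, in 4 or more libraries, the equivalent of 10 reads at the median depth, and 15 reads in total. TMM scaling used trims of 30% and 5%. All 12 libraries entered 1 limma (3.58.1, R 4.3.3) fit of log2(RPM + 1), adjusted by Benjamini-Hochberg over all loci; 50-nt windows with a peak in at least 4 libraries were fitted likewise. No count model was run, because the number is not a stated count. The fit was checked on simulated data, where it recovered most of the largest changes among the best covered loci and few of the smaller ones. A first version of that check, with loci of lower levels, missed its target and was replaced. The simulated libraries had no library sets and lost no reads to a peak threshold. The check therefore does not show which changes the fit can find in these data.

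The 10 loci, the comparison list and the rule for named genes (all members, the comparison genes called or highest in RPM, and the 3 loci most correlated with the highest member) were chosen with earlier results of these data known. The motif searches in 50-nt windows and the AT3G05060 exon 3 peak were added after values were seen. The library sets come from Ward linkage. Average linkage was tried first, over 2 choices of loci, and gave other sets; Ward linkage was chosen after that result was seen, because it returned sets known from earlier results. Both are given among the alternatives: other scaling, pseudocounts, filters, peak thresholds, window width, library sets, replicate numbers and leaving out each library. Of the 12 pairs of libraries with the same replicate number, 10 correlated above 0.1 and 2 below 0, so the numbers were not treated as pairing, which was set to need all pairs above 0.1.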

Additional observations from a re-analysis of the deposited data

Results flagged for a closer look

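In groups of 4 libraries, a value was picked out where its gap to the next one took most of the group's range (Dixon's test at 95%). Chance meets that in about 1 of 20 groups of independent, normally distributed values. RPM was not transformed and the 30 groups share the same 12 libraries, so that rate need not hold here. Of 30 groups, 5 held such a value. NOP56 stood at 294 RPM in GFP replicate 4. NAP57 stood at 8 RPM in GFP replicate 2. NUC-L1 was lowest at 5.85 RPM in GFP replicate 1. NUC-L2 stood at 35.4 RPM in GFP replicate 1 and at 21.2 RPM in GFP-FIB1 replicate 1. GFP replicate 4 is the only control library of set C, and the part of the library set in its NOP56 value was not tested.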

How the results depend on the processing

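No member was called under any of 23 other settings of the fit of loci (lowest adjusted p by limma 0.795), and no member window under 24. The settings kept 7 to 10 members in the test. Of 528 fold changes, 37 changed sign, all between values that were not called, and the cause was not tested. Without TMM scaling the median of all loci moved from 0.12 to −0.10 for CFP-FIB2 over GFP, and NAP57 became −0.26 and NUC-L1 −0.27. Between the tagged groups that median became 0.17, NOP56 0.26 and NUC-L1 0.37. With peaks at p of at most 0.001, AT4G22380 became 0.06 for GFP-FIB1 over GFP and AT3G05060 −0.15 between the tagged groups. A pseudocount of 0.25 made AT3G12860 0.23 for CFP-FIB2 over GFP, and keeping overlapping peaks made NAP57 −0.01 between the tagged groups. For GFP-FIB1 over GFP, AT4G22380 became 0.03 with the Ward sets and 0.49 with the average-linkage sets, which also made AT5G27120 −1.04 and NUC-L1 −0.09.

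Leaving out each library in turn gave, for GFP-FIB1 over GFP, −0.12 to 0.59 for AT5G27120, −0.35 to 0.19 for AT4G22380, −0.38 to 0.52 for NAP57, −0.09 to 0.42 for NUC-L1 and −1.29 to 0.09 for NUC-L2. For CFP-FIB2 over GFP it gave −0.41 to 0.32 for AT3G12860, −0.27 to 0.58 for NAP57 and −0.09 to 0.43 for NUC-L1. Between the tagged groups it gave −1.59 to 1.00 for NOP56, −0.46 to 0.43 for NAP57 and −0.31 to 0.32 for NUC-L1. Over all loci, the Ward sets as a term gave 123, 97 and 1 calls in the 3 comparisons, and the average-linkage sets gave 47, 50 and 0, against 0 in each without them. Without the mean-variance trend there were 11, 3 and 0 calls, with overlapping peaks kept 1, 1 and 0, and, for GFP-FIB1 over GFP, 4 without GFP-FIB1 replicate 1 and 1 without GFP replicate 4. With no filter on windows, 45, 52 and 35 were called, against 1, 4 and 0, and 0 in the members. With the replicate number as a block the calls over all loci were 123, 110 and 0, and 0 among the members. The 12 same-numbered pairs had correlations from −0.208 to 0.587, and 7 of 12 libraries correlated best with their own number. Low reads limit the SNU13 type loci, where most peaks hold few reads.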
